A study of Mus musculus with 2 samples.

Results

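The aminoacyl-tRNA synthetase genes were described in CH12.LX, a mouse B-cell lymphoma line kept as an immortalized culture, whose strain the labels give as B10.H-2aH-4bp/Wts. The 36 members were the 20 cytosolic and 16 mitochondrial enzymes whose gene identifiers carry these symbols in GENCODE annotation M21, and all 36 were found among the 43346 genes of the tables. Total RNA longer than 200 nt, with ERCC spike-in RNA added, was sequenced in 2 libraries, biological replicates 1 and 2 by their labels, each from a biosample of its own. The libraries form 1 untreated group, so there is no contrast between conditions, and every error below is the SD of n = 2 replicates unless stated otherwise. No treatment, allele or transgene is named, the line comes from 1 donor animal, and no other B cells were measured. A description in the labels names the RNA poly(A)+ although the assay title names total RNA, and the conflict could not be resolved.

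Aminoacyl-tRNA synthetases join each amino acid to its transfer RNA and thereby set which amino acid a codon adds to a protein. Mammalian cells keep 2 sets of nuclear genes for this work: 1 set makes the enzymes of the cytosol and the other makes enzymes that are imported into mitochondria, where they serve the few proteins encoded by the mitochondrial genome. Several cytosolic enzymes sit together with scaffold proteins in the multi-synthetase complex, and Gars and Kars serve both compartments from a single gene. The enzymes fall into class I and class II by the fold of their catalytic domain.

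The libraries held 24379162 and 23517883 expected counts on genes, where an expected count is an estimated number of reads or fragments that divides shared reads between features. Levels are given as TPM, a relative transcript abundance per transcript length that can be compared between genes. The cell type fitted its label: all 7 B-cell markers reached 1 TPM in both replicates, with means from 8.43 TPM for Pax5 to 2359 TPM for Cd74, whereas 0 of 4 T-cell, 0 of 4 myeloid and 0 of 4 fibroblast and epithelial markers did. Of the 3 erythroid markers only Hba-a1 did, at 3.60 ± 0.615 TPM, and Hbb-bs had 0 counts.

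All 36 synthetase genes reached 1 TPM in both replicates. The same level was reached by 25.4% of all genes and by 45.9% of protein-coding genes, 9862 of 21474. The cytosolic enzymes had a median of 126 TPM in replicate 1 and 117 TPM in replicate 2, and the mitochondrial enzymes 12.7 and 13.1 TPM. The cytosolic median was thus 9.46 ± 0.702 times the mitochondrial one, and the replicates did not overlap. The median of the expressed protein-coding genes was 19.2 TPM and their upper quartile 51.4 TPM. All 20 cytosolic enzymes lay above that quartile on average, against 2 mitochondrial enzymes (Yars2 and Rars2), and 10 of 16 mitochondrial enzymes lay below the median. Summed over their members, the cytosolic genes held 3121 ± 2.68 TPM and the mitochondrial genes 370 ± 7.39 TPM. In expected counts the cytosolic genes took 0.599 ± 0.00246% of the library and the mitochondrial genes 0.0727 ± 0.000251%.

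**Figure D1:**
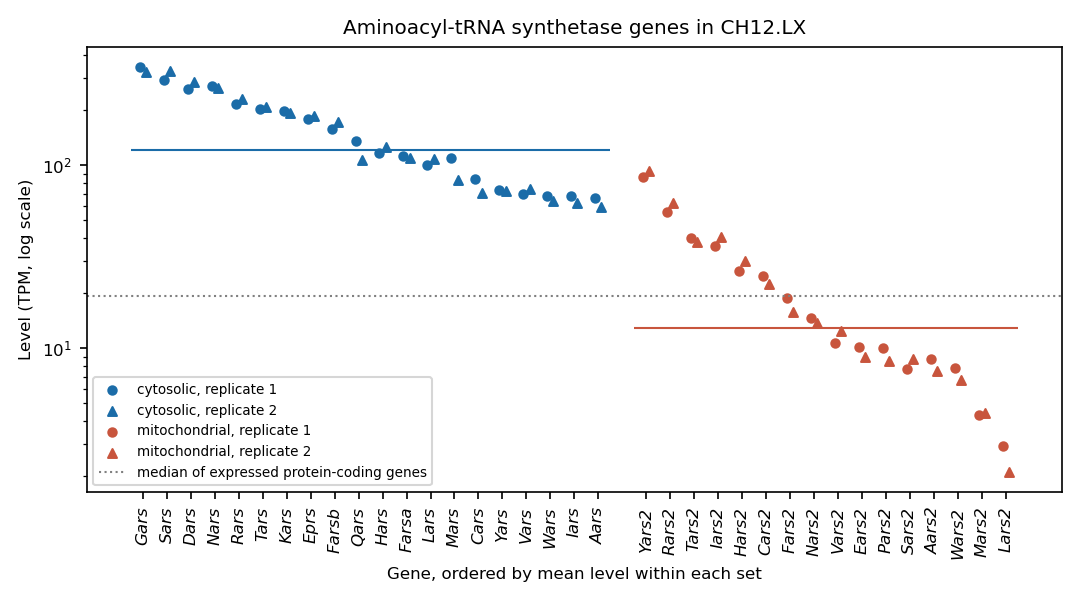
Level of each synthetase gene in TPM on a log axis, with circles for replicate 1 and triangles for replicate 2. Horizontal lines mark the mean of the 2 replicate medians of each set (122 TPM cytosolic, 12.9 TPM mitochondrial), and the dotted line marks the median of expressed protein-coding genes, 19.2 TPM. Of the mitochondrial set, Yars2 lies inside the cytosolic range and Rars2 overlaps its low end, while the other genes lie below it in both replicates.

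Among the cytosolic enzymes the spread was modest, with the highest 5.34 ± 0.185 times the lowest. Gars, glycyl-tRNA synthetase (chr6:55038007-55079500 on mm10, plus strand), had the highest mean, at 343 and 323 TPM in replicates 1 and 2, followed by Sars, seryl-tRNA synthetase, at 292 and 325 TPM. Dars, the aspartyl enzyme, stood at 261 and 286 TPM, and Nars, the asparaginyl enzyme, at 270.0 and 263 TPM. Gars and Sars overlapped, as did Dars and Nars, while both values of Gars and of Sars exceeded those of Dars and Nars. Rars, for arginine, had 215 and 230.0 TPM, and Tars, for threonine, 202 and 209 TPM. These 6 genes were the ones above 200 TPM on average.

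The middle of the cytosolic range held Kars, for lysine, at 197 and 194 TPM, and Eprs, at 180 and 186 TPM. Eprs encodes 1 protein that charges both glutamate and proline. Qars, for glutamine, stood at 136 and 107 TPM, Hars, for histidine, at 117 and 125 TPM, and Lars, for leucine, at 100.2 and 109 TPM. Qars overlapped both Hars and Lars, whereas Hars was above Lars in both replicates. The low end was Aars, for alanine, at 65.8 and 59.0 TPM, with Iars (isoleucine) at 67.8 and 62.3 TPM, Wars (tryptophan) at 67.7 and 63.4 TPM and Vars (valine) at 69.4 and 74.2 TPM. Aars, Iars and Wars overlapped with each other, so their order was not resolved. In all, 7 cytosolic enzymes averaged under 100 TPM, the others being Mars, for methionine, at 110 and 83.4 TPM, Cars, for cysteine, at 84.4 and 70.1 TPM, and Yars, for tyrosine, at 73.7 and 72.7 TPM. Mars and Cars overlapped, and their replicate values were further apart than those of the other low genes.

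Phenylalanyl-tRNA synthetase is built from an alpha chain encoded by Farsa and a beta chain encoded by Farsb. Farsa stood at 112 and 110 TPM and Farsb at 157 and 172 TPM, so that the beta chain's RNA was 1.49 ± 0.116 times that of the alpha chain and higher in both replicates. The chains pair in equal number in the enzyme, whereas their RNA levels were unequal.

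The 8 enzymes of the multi-synthetase complex (Eprs, Iars, Lars, Mars, Qars, Rars, Kars and Dars) had a median of 158 TPM in replicate 1 and 147 TPM in replicate 2. The 12 cytosolic enzymes outside it had medians of 114 and 117 TPM, a ratio of 1.32 ± 0.0885. The median of the complex fell midway between Qars and Eprs in replicate 1 and midway between Lars and Eprs in replicate 2. Its change between replicates thus turned on Qars, which was below Lars in replicate 2 only. The ratio was not recomputed by expected count or on protein-coding transcripts. Within the complex the range ran from Iars at 65.1 TPM to Dars at 273 TPM, so the enzymes of 1 complex differed from each other more than the medians of bound and free enzymes did. Of its 3 scaffold genes, Aimp1 stood at 289 and 323 TPM, Eef1e1 at 230 and 226 TPM, and Aimp2 at 85.5 and 75.2 TPM. Aimp1 RNA was 3.84 ± 0.655 times that of Aimp2.

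In the cytosol the median of the class II enzymes was above that of class I in both replicates, and the genes of both classes overlapped. The 10 class II genes had medians of 199 and 201 TPM and the 10 class I genes 92.3 and 78.8 TPM, a ratio of 2.36 ± 0.279. Class II held both Gars, at 333 TPM, and Aars, at 62.4 TPM, and class I reached 222 TPM with Rars. Eprs, whose protein holds a catalytic domain of each class, was counted with class I. The mitochondrial enzymes showed a ratio of 1.24 ± 0.201, with medians of 14.7 and 13.7 TPM for 7 class II genes and 10.6 and 12.5 TPM for 9 class I genes. These medians were the values of single genes, Nars2 for class II and Vars2 for class I. Both genes moved in TPM against their expected counts, which were 873 and 882 for Nars2 and 758 and 685 for Vars2. Whether the class ratio differs between the compartments was not tested.

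The mitochondrial set was spread more widely, with the highest gene 36.7 ± 10.5 times the lowest. Yars2, the tyrosyl enzyme (chr16:16302965-16309640, plus strand), led at 86.2 and 93.1 TPM, followed by Rars2, the arginyl enzyme, at 55.7 and 62.4 TPM. Tars2, for threonine, had 39.8 and 37.8 TPM, and Iars2, for isoleucine, 36.2 and 40.8 TPM, and these 2 overlapped. Those 4 were the mitochondrial enzymes above 30 TPM on average. Hars2 had 26.3 and 29.8 TPM, Cars2 24.8 and 22.3 TPM and Fars2 18.8 and 15.8 TPM.

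The remaining mitochondrial enzymes were low. Nars2 had 14.7 and 13.7 TPM and Vars2 10.6 and 12.5 TPM, and 7 genes averaged under 10 TPM: Ears2 at 9.58 ± 0.820, Pars2 at 9.25 ± 1.06, Sars2 at 8.18 ± 0.728, Aars2 at 8.12 ± 0.827, Wars2 at 7.27 ± 0.764, Mars2 at 4.35 ± 0.0707 and Lars2 at 2.53 ± 0.587 TPM. Lars2, the leucyl enzyme (chr9:123366927-123462666, plus strand), was the lowest of the 36 genes and rested on 225 expected counts in replicate 1 and 155 in replicate 2. Mars2, the methionyl enzyme (chr1:55237177-55248470, plus strand), had 995 and 976 expected counts, more than Aars2, Ears2 or Sars2, on 1 annotated transcript of 11294 nt. The leading transcripts of the other mitochondrial enzymes were between 1574 and 5471 nt long.

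The cytosolic and the mitochondrial enzyme for the same amino acid were set side by side in 16 pairs, with Eprs standing for both glutamate and proline and Farsa for phenylalanine. The cytosolic enzyme was higher in both replicates, with no overlap, in 15 of 16 pairs. The median ratio over the pairs was 7.04 in replicate 1 and 7.38 in replicate 2. The largest ratios in TPM were those for leucine, 34.1 and 51.4, and serine, 38.1 and 37.4. Methionine, proline, glutamate and asparagine followed with mean ratios between 18.8 ± 0.590 and 22.2 ± 4.66. The ratios for arginine, 3.77 ± 0.116, and cysteine, 3.27 ± 0.191, were among the smallest, and that for isoleucine was 1.70 ± 0.243, with Iars at 65.1 TPM against Iars2 at 38.5 TPM.

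Tyrosine was the exception. Yars2 (ENSMUSG00000022792.12) exceeded Yars (ENSMUSG00000028811.7) in both replicates, at 86.2 against 73.7 TPM and 93.1 against 72.7 TPM, a ratio of 1.23 ± 0.0778. This order holds only per transcript length: Yars had 3803 and 3459 expected counts and Yars2 2540 and 2553, so by count Yars was 1.43 ± 0.101 times Yars2, and the cytosolic enzyme was then higher in 16 of 16 pairs. The methionine pair depended on length as well, with Mars 22.2 ± 4.66 times Mars2 in TPM but 3.31 ± 0.189 times by expected count. The order of the ratios changed too: by count proline had the largest, 57.3 ± 9.75, and glutamate, 42.4 ± 3.60, lay beside leucine, 42.4 ± 12.2. With TPM of protein-coding transcripts alone, Yars was 0.728 ± 0.0647 times Yars2 and the count of pairs stayed at 15.

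**Figure D2:**
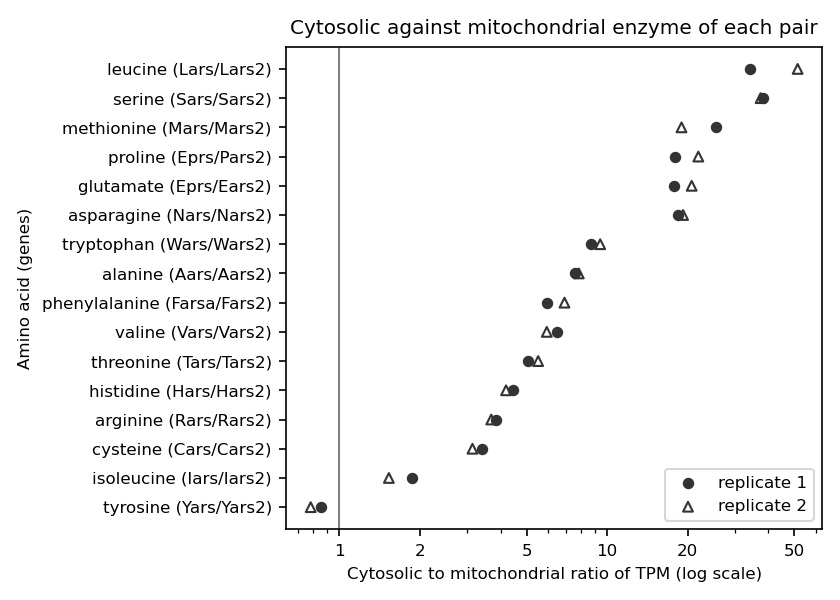
Ratio of the cytosolic to the mitochondrial enzyme's TPM for each of 16 amino acids on a log axis, with filled circles for replicate 1 and open triangles for replicate 2. The vertical line marks equal levels: tyrosine lies below it in both replicates and the other 15 amino acids above it.

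By median TPM, 3 other lists of mitochondrial translation genes stood above the mitochondrial synthetases, although their single genes overlapped with the synthetases. Medians by expected count were not taken for these 3 lists. The 77 mitochondrial ribosomal protein genes had a median of 84.0 ± 0.403 TPM, all of them at 1 TPM or more, and 9 mitochondrial translation factors a median of 29.0 ± 2.53 TPM, from Mtrf1l, a release factor, at 9.72 TPM to Tufm, the mitochondrial elongation factor Tu, at 87.3 TPM. The 4 genes that form glutaminyl-tRNA by amidation (Gatb, Gatc, Qrsl1) or formylate the initiator methionyl-tRNA (Mtfmt) had a median of 25.3 ± 0.315 TPM. Gatc was the lowest of these at 11.1 and 8.98 TPM and Qrsl1 the highest at 31.9 and 39.8 TPM. All 3 medians exceeded the mitochondrial synthetase median of 12.9 ± 0.297 TPM in both replicates. Tarsl2, a paralogue of the threonyl enzyme, was at 2.95 ± 0.198 TPM, against 206 ± 4.70 TPM for Tars. The cytosolic elongation factors Eef1a1, which carries charged transfer RNA to the ribosome, Eef2, which drives translocation, and Eef1b2, Eef1d and Eef1g, of the nucleotide exchange complex, had a median of 1097 ± 19.1 TPM over the 5 genes.

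Transcription factor ATF4 is known to activate several cytosolic synthetase genes when amino acids are short, through a composite element that carries the letters TGATGNAA. Promoter windows of 300 bases, from 250 before to 50 after the start annotated in RefSeq, were read from its table on GRCm38.p6, and 27 of 36 members were matched, Mars under its newer symbol. On both strands, where the opposite strand reads TTNCATCA, 5 of 13 matched cytosolic genes held the element and 0 of 14 matched mitochondrial genes did. It was in 3.97% of all RefSeq promoters and in 2.84% of 7891 expressed protein-coding genes. At the share of expressed genes few of 14 windows would hold the element, so 0 of 14 does not set the mitochondrial genes apart. A window with 1 match is shown for each of the 5 cytosolic genes that held it. Aars held another match, starting 112 nt before the RefSeq start, that is not shown. The windows run 5′ to 3′ on the gene's strand, with the element in capitals and distances from the RefSeq start. That start lies 698 nt downstream of the M21 gene start in Aars, 143 nt in Yars, 30 nt in Iars and 7 nt in Tars, and 6 nt upstream of it in Gars. Counted from the M21 starts, the elements shown for Aars and Yars would lie outside the window.
Aars, chr8:111033841-111033868, plus strand, element starting 10 nt after the start: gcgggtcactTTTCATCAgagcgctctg
Gars, chr6:55037961-55037988, plus strand, 30 nt before the start: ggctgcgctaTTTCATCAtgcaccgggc
Iars, chr13:49682127-49682154, plus strand, 8 nt after the start: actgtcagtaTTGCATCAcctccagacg
Tars, chr15:11399656-11399683, minus strand, 15 nt before the start: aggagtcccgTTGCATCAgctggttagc
Yars, chr4:129189896-129189923, plus strand, 4 nt after the start: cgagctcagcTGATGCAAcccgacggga
The matched genes did not share a level: Gars averaged 333 ± 14.3 TPM and Aars 62.4 ± 4.84 TPM. The 5 genes with the element had a median of 73.2 ± 0.658 TPM and the 8 matched cytosolic genes without it 174 ± 7.44 TPM. A match is a run of letters and not a measured binding site, and no binding data were analysed. A second element, the core GCGCATGCG recognised by NRF1, an activator of nuclear genes for mitochondrial proteins, was searched in the same windows, on both strands with the opposite strand reading CGCATGCGC. It was in 0 of 13 cytosolic and 2 of 14 mitochondrial windows (Vars2 and Wars2), against 1.75% of all promoters and 4.82% of expressed protein-coding genes.

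Transcript usage was read from the deposited share of each gene's TPM on each transcript. The 36 genes had 183 annotated transcripts, and 10 genes had a single one. The leading transcript, that with the highest mean share, was annotated as protein-coding in all 36 genes, and it held 50% or more of the gene's TPM in both replicates in 31. Kars makes its cytosolic and its mitochondrial form by alternative splicing, and it gave 85.6% and 86.3% of its TPM to Kars-201 and 13.6% and 12.6% to Kars-202. Gars, which also serves both compartments, has 1 annotated transcript in these files, so its forms could not be told apart.

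The 5 genes without a transcript above that mark in both replicates were Mars, Qars, Sars, Hars2 and Wars2. In Mars, the leading Mars-201, of 2939 nt, held 51.9 and 48.4 TPM. Mars-204, a transcript of 467 nt annotated as a retained intron, held 49.9 and 25.8 TPM. Mars-204 rested on 254 and 127 expected counts, against 2948 and 2637 for Mars-201. A short transcript thus took a large share of TPM with few counts. Qars had no dominant transcript: Qars-209, of 459 nt, had 29.2% and 16.5% of the gene's TPM and Qars-201, of 2793 nt, 15.3% and 20.6%. In Sars, Sars-202 had 51.7% and 48.1% and Sars-204, of 637 nt, 29.91% and 35.99%. Hars2 divided its TPM between Hars2-206, with 46.0% and 41.7%, and Hars2-201, with 31.9% and 32.6%.

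In Wars2, Wars2-201 held 49.0% and 58.3% of the gene's TPM, and Wars2-203, annotated for nonsense-mediated decay, 51.0% and 37.7%, on 269 and 165 expected counts against 335 and 330 for Wars2-201. By TPM the transcript annotated for decay was the higher one in replicate 1, and by counts the coding one was higher in both replicates. Over all members together, protein-coding transcripts held 92.0 ± 0.737% of cytosolic and 92.8 ± 1.09% of mitochondrial TPM, and retained introns 5.79 ± 0.941% and 3.27 ± 0.885%. Transcript types come from the M21 annotation, and for 28 of 36 leading transcripts the length there was within 5 nt of that in the files, which used release M4.

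**Figure D3:**
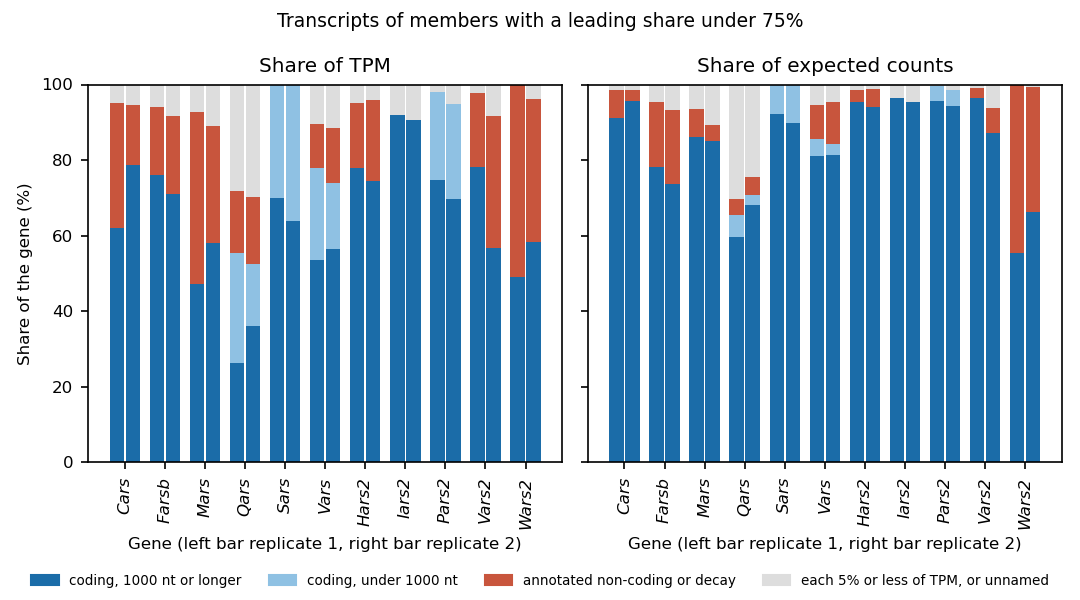
Share of each gene on 4 kinds of transcripts in percent, by TPM on the left and by expected counts on the right, for the 11 members whose leading transcript held under 75% of TPM in either replicate; the left bar of a gene is replicate 1 and the right bar replicate 2. In Mars and Cars the non-coding share is large by TPM and small by counts, while in Wars2 it is large in both.

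In TPM the members differed between the replicates about as much as all genes did. None of the 36 differed by over 1.5-fold in TPM, on log2(TPM + 0.5), against 2.69% (314) of the 11661 genes whose expected count averaged 20 or more. At that share a set of 36 would hold few such genes, so the count does not set the members apart. The median size of the difference was 0.13 on the log2 scale among the members and 0.14 over all of those genes. By set it was 0.099 for cytosolic and 0.17 for mitochondrial enzymes, below and above that of all genes. The median signed difference, replicate 2 minus replicate 1, was -0.02 for cytosolic and -0.09 for mitochondrial enzymes. Scaling to the spike-in totals turned both directions, to 0.29 and 0.22, and moved the median of all genes to 0.29, so no direction of the set was established.

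Beyond counting error, 17 of 35 members with whole counts differed between the 2 libraries by an exact binomial test of their counts, with Benjamini-Hochberg adjustment over 9859 genes. Replicate 2 was higher in 7, against 14.2% of all genes tested, and lower in 10, against 15.0%. Those higher in replicate 2 were Dars, Eprs, Farsb, Hars, Lars, Vars and Rars2. Those lower were Aars, Gars, Iars, Mars, Nars, Yars, Fars2, Lars2, Pars2 and Wars2. The test compares 2 libraries and not conditions, and it is more sensitive for genes with many counts. The members with higher counts could therefore pass it with small differences, such as Gars, with a log2 difference in count share of -0.10 and an adjusted p of 2.37e-07. Lars2, with few counts, differed most, by -0.48 in count share with an adjusted p of 0.00712.

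The largest differences in TPM were those of Lars2 at -0.40, Mars at -0.40, Qars at -0.34 and Cars at -0.27 on the log2 scale. By count share Mars differed by only -0.09, Qars by -0.09 and Cars by -0.00089. In Mars, Qars and Cars a short transcript had a lower TPM in replicate 2: Mars-204 and Qars-209 as given above, and Cars-206, a retained intron of 572 nt, which stood at 27.8 and 11.2 TPM on 203 and 78.3 expected counts. The leading Cars-202, of 2462 nt, stood at 45.0 and 47.6 TPM. The TPM difference of these 3 genes thus lay mostly on transcripts with few counts, whereas that of Lars2, which has 1 annotated transcript, lay in its counts.

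**Figure D4:**
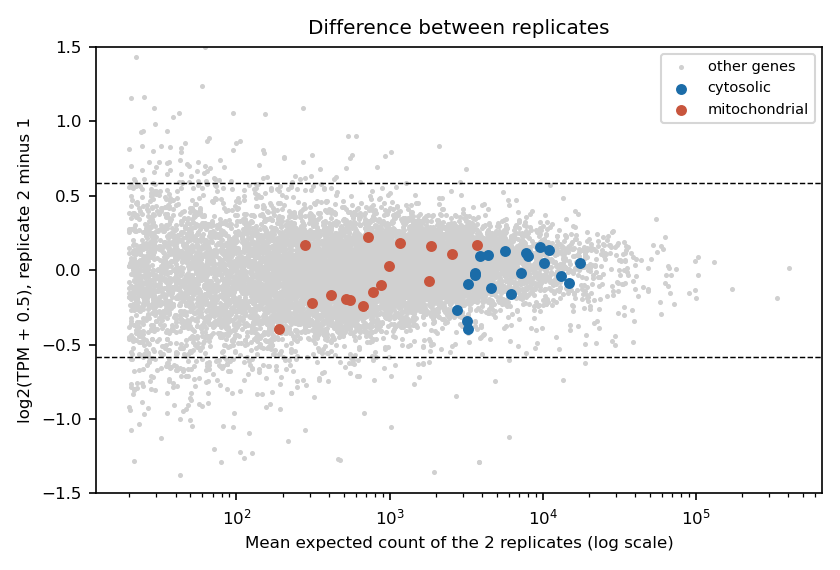
Difference between the replicates, log2(TPM + 0.5) of replicate 2 minus replicate 1, against the mean expected count on a log axis, for 11661 genes in grey with cytosolic enzymes in blue and mitochondrial enzymes in red. Dashed lines mark a 1.5-fold difference, no member lies outside them, and 14 other genes lie outside the drawn range.

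Of the 36 members, 9 had the start of another protein-coding gene within 1000 nt on the opposite strand. This is 25% of the set, against 10.9% of 21951 protein-coding genes in M21. The 9 members were 4 of 20 cytosolic and 5 of 16 mitochondrial genes. All 36 members reached 1 TPM in both replicates, against 45.9% of protein-coding genes, and the share among expressed genes was not taken. The comparison therefore does not set the members apart. Hars and Hars2 are such neighbours of each other, so both entered the count, with starts 197 nt apart. They had 121 ± 5.94 and 28.1 ± 2.52 TPM, a ratio of 4.31 ± 0.175. Rars2 starts 13 nt from Orc3, a subunit of the origin recognition complex, Yars 33 nt from S100pbp, and Sars2 172 nt from Mrps12, a mitochondrial ribosomal protein gene. Kars, Wars, Ears2 and Fars2 have such a start near Terf2ip, Wdr25, Ubfd1 and Lyrm4. Where the 2 genes overlap, as at Hars and Hars2, reads from opposite strands can be told apart only if the libraries kept strand, and whether the counts used strand is not given in the sources used here.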

How the data were processed

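Symbols, transcript names and types, and coordinates came from GENCODE M21 on GRCm38, which is mm10, matched to the files' identifiers without version. The files were made on mm10 with GENCODE M4; the aligner and quantification tool: not given in the sources used here. Gene levels are TPM values deposited by the authors, scaled to a fixed total over all features, spike-ins included, so a gene's value also moves with other genes. Expected counts, deposited by the authors and not normalized, gave depth, count shares and the binomial test. FPKM values deposited by the authors, per length and library size, served as an alternative. Isoform percent, deposited by the authors, is a transcript's share of its gene's TPM.

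Means and SDs were taken over the 2 replicates, and levels were not tested: an exact paired permutation test over 2 replicates cannot go below p = 0.5. Whole-count genes with a mean of 20 or more were compared by a 2-sided exact binomial test given the library totals, checked on simulated data; replicate differences used log2(TPM + 0.5). Tools were Python 3.11.15 with pandas 2.3.3 and scipy 1.17.1, and R 4.3.3 with edgeR 4.0.16 and DESeq2 1.42.0 for scaling factors only. Separate culture is not stated, so errors measure the spread between these samples, which may be technical. The members and gene lists were chosen with earlier results of these data known; the genes that stand for each amino-acid pair, both sequence elements and 4 kinds of alternatives were chosen after seeing the data. All 36 members were named by rule, and of related lists the highest, the lowest and those needed to describe a list. Sequences were read from the RefSeq promoter table of GRCm38.p6 and cover 27 members; the others were not used here, and a few items are not reported here.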

Additional observations from a re-analysis of the deposited data

How the results depend on the processing

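Of 122 values under other settings, 99 kept within the spread of the replicates or within 1.5 times the main count. The signed median replicate difference turned under scaling to spike-in totals, to 0.29 for cytosolic and 0.22 for mitochondrial enzymes, and, for cytosolic enzymes, to 0.0133 with TPM rescaled without mitochondrially encoded genes and spike-ins; the cause was not tested. Medians moved with the unit and the set: cytosolic to 104 as FPKM, 136 without mitochondrially encoded genes and spike-ins, 112 without Gars and Kars, 113 on protein-coding transcripts and 247 as CPM, which leaves out length. The mitochondrial median moved to 14.0 as posterior mean TPM, 11.0 as FPKM, 14.4 without mitochondrially encoded genes and spike-ins, 15.8 with Gars and Kars added, 10.5 on protein-coding transcripts, 14.2 without Mars2 and 31.4 as CPM. The ratio of medians became 8.59 with posterior mean TPM, 7.74 with Gars and Kars added, 10.7 on protein-coding transcripts, 8.57 without Mars2 and 7.89 by CPM. The median pair ratio became 8.29 with Farsb for Farsa and 5.54 by CPM. A lower fold threshold called 3 members in place of 0. The alternatives without Mars2, with Farsb, by CPM and, for the count of pairs, on protein-coding transcripts were chosen after seeing the data. Leaving out a replicate gave cytosolic medians from 117 to 126, mitochondrial from 12.7 to 13.1, ratios of medians from 8.96 to 9.96, pair ratios from 7.04 to 7.38, bound to free ratios from 1.26 to 1.38, Farsa to Farsb from 0.638 to 0.712, and 33 members with a leading transcript, with 36 members and 15 pairs each time. Members beyond counting error numbered 12 to 18 over the alternatives, for which the share of all genes was not taken. No paired analysis was possible because the 2 replicates form 1 group. Depth limits Lars2, at 155 to 225 counts, most.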

Other observations

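Of 14 genes of the ATF4 pathway and response, 11 reached 1 TPM in both replicates. Atf4 stood at 620 and 543 TPM, and the serine synthesis genes Phgdh and Psat1 at 432 ± 27.2 and 409 ± 19.6 TPM. Asns, asparagine synthetase and a known ATF4 target, had 1 expected count in each replicate, while Nars, which uses asparagine, stood at 267 ± 4.90 TPM. Slc7a11, the cystine carrier, had 1 and 0 counts and Vldlr 0 and 1. The ATF4 element was in the windows of 5 of 13 matched genes of this list (Trib3, Chac1, Asns, Slc7a11 and Vldlr). Within this list, genes with the element thus ranged from a single count to 37.76 and 35.99 TPM for Chac1. Trib3 differed most between replicates, at 23.1 and 13.9 TPM.

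Genes that make or use selenocysteinyl-tRNA were all present, 7 of 7, from Sepsecs, which converts phosphoseryl-tRNA to selenocysteinyl-tRNA, at 8.50 ± 0.346 TPM to Sephs2, which makes selenophosphate, at 177 ± 8.51 TPM. The 7 editing and peptidyl-tRNA hydrolysis genes had a median of 30.8 ± 0.629 TPM, and the highest was Aarsd1, an alanyl-tRNA editing protein, at 61.2 ± 2.04 TPM.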
